A study of Sus scrofa with 36 samples.

Results

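QKI and MBNL1 encode RNA-binding proteins that are known to promote the formation of circular RNAs (circRNAs). The genes were taken by symbol from the table of gene counts, and both were present, as 2 of 9815 genes. Each gene was followed across 4 postnatal ages of the pig heart and was then set against the number of back-spliced reads in the same animals.

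A circRNA forms when the spliceosome joins the end of an exon to the start of an exon upstream of it, so that the transcript closes on itself at a back-splice junction. This step competes with ordinary splicing and is favored when the introns on either side of the exon are brought together. QKI (quaking) is a KH-domain protein that binds motifs in such flanking introns and is known to raise circRNA output, whereas MBNL1 (muscleblind-like splicing regulator 1) is a zinc-finger protein that binds its own transcript and is known to promote the circle formed from it. In striated muscle both proteins also direct alternative splicing, and muscleblind proteins are known for the switch from fetal to adult exons after birth and for their sequestration in myotonic dystrophy.

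The hearts came from domestic Yorkshire pigs, with no treatment and no genetic alteration reported, collected on postnatal day 1 (P1), P3, P7 and P28. The paper reports both sexes among all animals of each age, but the sexes of the pigs used here are not given in the sources used. Bulk tissue was sequenced, so each library mixes cardiomyocytes with the other cells of the heart. Batch cd, sequenced by CD Genomics, comprised 12 pigs, 3 at each age, with a total RNA library and a small RNA library for each pig. The columns of the tables carry an age and a number from 4 to 6, which is used here to name a pig, as in P3 number 5.

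Library depth and library quality were examined before the members. Gene counts per library ranged from 8887176 to 14883849, and P3 number 5 was the lowest. This library also stood apart in its values, since 25% of the 5526 genes tested had their lowest CPM there (counts per 1000000 gene counts, where the gene counts are those of the table used, which covers chromosomes 1, 2, 6 and 13, and not of the whole transcriptome), against 17.2% in the library with the next highest share, P1 number 4. The 6 measured cardiomyocyte markers of 14 listed (such as troponin and myosin genes) summed to between 68437 and 88417 CPM over all 12 libraries. For circRNAs, 5 libraries (P3 number 5, P3 number 6, P7 number 6, P28 number 5 and P28 number 6) had few junctions seen with a single count, between 6.50% and 17.1% of those detected, whereas the other 7 libraries had between 25.7% and 44.1%. The levels of the members, the correlations with back-spliced reads and the differences between ages in back-spliced reads are given with all 12 libraries and without P3 number 5 or without all 5 of these libraries. As the tissue is bulk, fewer cells of a type and less RNA per cell cannot be told apart.

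QKI was an abundant transcript of the pig heart at every age. The gene (ENSSSCG00000004029) lies on chromosome 1 from 4735513 to 4883768 in the table, which does not name its genome build, and no other gene of the table overlaps it. It received between 12487 and 37701 counts per library. Per kilobase of its listed length of 10425 bases, its mean level was 226 CPM, above that of 97.1% of the genes tested, for which the median was 10.6 CPM per kilobase. On the CPM scale, QKI was measured at 2215, 2137 and 2110 in the 3 P1 libraries. The P3 libraries read 2415, 1405 and 2209 CPM. The P7 libraries read 2335, 2472 and 2297 CPM. At P28 the libraries read 2764, 2967 and 2913 CPM. All 3 P28 libraries were therefore above all 9 earlier ones, a pattern that 6.84% of the tested genes showed, and P3 number 5 was the lowest of the 12.

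MBNL1 was present at a lower level and followed a similar course. The gene (ENSSSCG00000011720) lies on chromosome 13 from 92491808 to 92696233 in the same table, with no other gene of the table overlapping it, and received between 3205 and 10467 counts per library. Its mean level per kilobase, over a listed length of 7033 bases, was 80.4 CPM, above 91.8% of the genes tested. MBNL1 was measured at 477, 547 and 529 CPM in the P1 libraries. The P3 libraries read 523, 361 and 473 CPM. The P7 libraries read 538, 584 and 560 CPM. The P28 libraries read 806, 665 and 728 CPM. Again all 3 P28 libraries were above all 9 earlier ones, and P3 number 5 was the lowest.

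**Figure D1:**
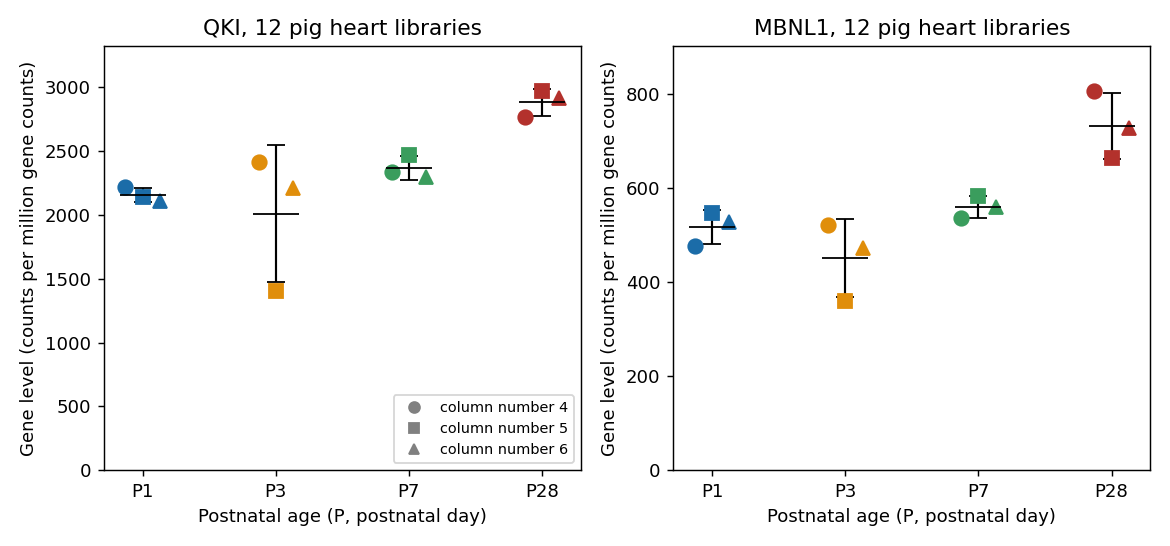
Level of QKI (left) and MBNL1 (right) in CPM (vertical axis, from 0) against postnatal age (horizontal axis) in 12 heart libraries, where each symbol is 1 pig and its shape gives the column number, and bars show the mean ± SD of 3 pigs. The P28 libraries, at 2764 to 2967 CPM for QKI and 665 to 806 CPM for MBNL1, sit above all earlier libraries, and the square at P3 is the lowest point in both panels.

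The order of the mean levels by age was the same for both genes on the CPM scale when all 12 libraries were used. QKI averaged 2010 ± 534 CPM (SD, n = 3) at P3, 2154 ± 54.8 (n = 3) at P1, 2368 ± 92.0 (n = 3) at P7 and 2882 ± 105 (n = 3) at P28. MBNL1 averaged 452 ± 83.0 CPM (SD, n = 3) at P3, 518 ± 36.0 (n = 3) at P1, 560 ± 23.1 (n = 3) at P7 and 733 ± 70.5 (n = 3) at P28. Without P3 number 5 the P3 mean was 2312 CPM for QKI, above P1, and 498 CPM for MBNL1, below P1, so the shared order was lost. P3, P1 and P7 were not separated from each other beyond their spread in the test given next. The wide spread at P3 came with number 5, which was 0.576 times the mean of the other 11 libraries for QKI and 0.617 times for MBNL1. In that library the measured endothelial markers (4 of 10 listed) summed to 1353 CPM, and those of smooth muscle and pericytes (3 of 8) summed to 1219 CPM, in both cases the highest of the 12. Their part in the low readings of QKI and MBNL1 was not tested.

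The study compared P1 with each later age and with the later ages together, and the adjacent ages P3 with P7 and P7 with P28 were added here. All contrasts came from a single edgeR quasi-likelihood fit over the 12 libraries, with TMM scaling of the library totals and Benjamini-Hochberg adjustment over all 5526 genes tested, and a gene was called at an adjusted p under 0.05. The contrasts with P1 share the P1 libraries, and positive log2 fold changes mean a higher level at the later age. The median log2 fold change of all genes lay between -0.04 and 0.01 in every contrast.

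MBNL1 rose at P28. From P1 to P28 its log2 fold change was 0.50 (SE 0.13, 95% interval 0.22 to 0.77), a 1.41-fold higher level, with an edgeR adjusted p of 0.0203, in a contrast in which 15.3% of the tested genes were called and 7.38% were called as higher. From P7 to P28 the log2 fold change was 0.51 (SE 0.13, edgeR adjusted p = 0.0146), where 18.8% of the genes were called and 8.34% were higher. From P3 to P28, a contrast chosen after the values had been seen, it was 0.74 (SE 0.13, edgeR adjusted p = 0.00287), with 16.5% of the genes called and 7.98% higher. The test over all 4 ages also called MBNL1 (F = 12.6, edgeR adjusted p = 0.00631), as it did 21.4% of the genes. The calls against P1 and P7 depended on single libraries. Leaving out P1 number 5, P1 number 6 or P28 number 4 took the P1 to P28 call above the threshold (up to 0.0796), and leaving out P7 number 4, P7 number 5 or P28 number 4 did so for P7 to P28 (up to 0.0663), with log2 fold changes that stayed between 0.41 and 0.58.

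QKI was 1.33-fold higher at P28 than at P1, but the difference did not pass the adjusted threshold with all 12 libraries. Its log2 fold change from P1 to P28 was 0.41 (SE 0.16, 95% interval 0.07 to 0.75, unadjusted p = 0.0209, adjusted p = 0.0939). From P7 to P28 it was also 0.41 (SE 0.16, edgeR adjusted p = 0.0837). From P3 to P28 it was 0.56 (SE 0.16, 95% interval 0.23 to 0.90, edgeR adjusted p = 0.0282), so that QKI was called in this contrast, and leaving out any of the P28 libraries took that call above the threshold (up to 0.0786). The test over all 4 ages gave F = 5.01 and an edgeR adjusted p of 0.0646.

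P3 number 5 decided whether QKI was called from P1 or P7 to P28, although it belongs to neither pair, because all libraries share an estimate of the spread. Without it, a setting chosen after the values had been seen, QKI rose from P1 to P28 by a log2 fold change of 0.41 (edgeR adjusted p = 0.0109), from P7 to P28 by 0.41 (0.00953) and from P3 to P28 by 0.38 (0.0307). MBNL1 then rose by 0.50 (edgeR adjusted p = 0.00353), 0.51 (0.00239) and 0.62 (0.00355) in the same contrasts. In that fit the share of genes called was 25.6% from P1 to P28, 28.3% from P7 to P28 and 18.5% from P3 to P28. A fit on only the 2 ages compared likewise called QKI from P1 to P28 (0.40, edgeR adjusted p = 0.0317) and from P7 to P28 (0.39, 0.0168).

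**Figure D2:**
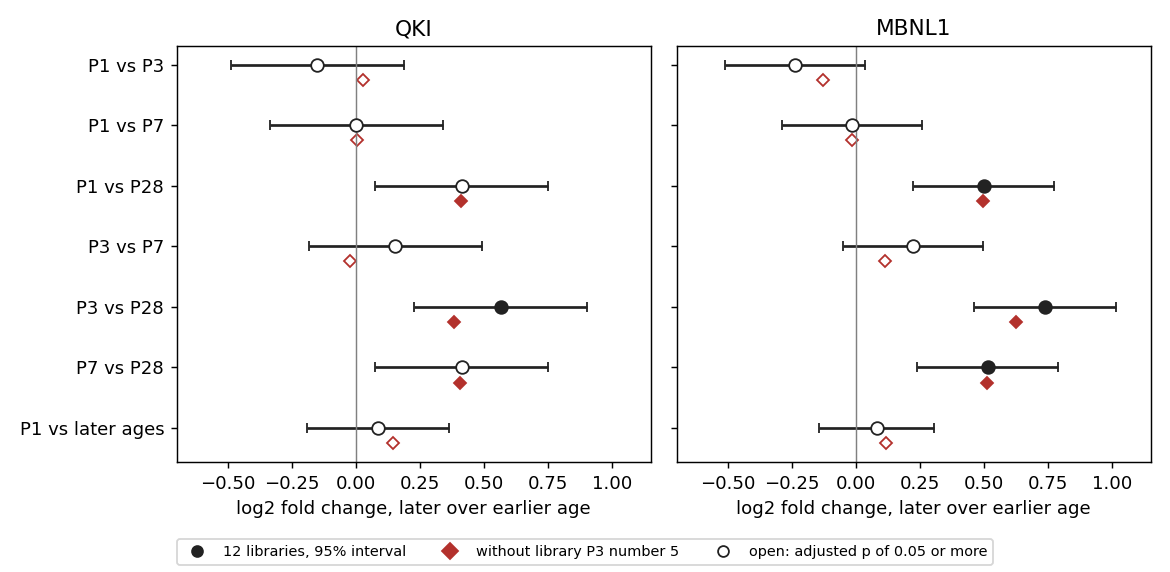
Log2 fold changes of QKI (left) and MBNL1 (right) for 7 contrasts, later over earlier age, from the fit over 12 libraries (circles, with 95% intervals) and without library P3 number 5 (diamonds). Filled symbols have an adjusted p under 0.05, and those for QKI from P1 and P7 to P28, both 0.41, are filled only among the diamonds.

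During the first postnatal week neither gene passed the test. From P1 to P3 the log2 fold change was -0.15 (SE 0.16, edgeR adjusted p = 0.638) for QKI and -0.24 (SE 0.13, edgeR adjusted p = 0.385) for MBNL1. In this contrast 0.0543% of the genes were called. Without P3 number 5 these values were 0.03 for QKI and -0.13 for MBNL1. From P1 to P7 they were below 0.001 in size for QKI (95% interval -0.34 to 0.34, edgeR adjusted p = 1.00) and -0.02 for MBNL1 (95% interval -0.29 to 0.26, edgeR adjusted p = 0.980), where 2.01% of the genes were called. The 3 P7 libraries of QKI were all above those of P1 on the CPM scale, as were those of 22.2% of the genes, but the difference was lost once the totals were scaled, with P1 at 2227 ± 203 and P7 at 2227 ± 82.0 TMM-scaled CPM (SD, n = 3 each). From P3 to P7 the log2 fold changes were 0.15 (edgeR adjusted p = 0.635) for QKI and 0.22 (edgeR adjusted p = 0.359) for MBNL1, and 2.21% of the genes were called. The P7 libraries of MBNL1 were all above those of P3 in CPM, as were those of 15.4% of the genes. Against the mean of the later ages, P1 was lower by 0.09 (edgeR adjusted p = 0.770) for QKI and by 0.08 (edgeR adjusted p = 0.729) for MBNL1, with 2.46% of the genes called.

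On the TMM scale the separation of P28 was kept. The lowest P28 library of QKI read 2881 TMM-scaled CPM against 2461 for the highest earlier library, and for MBNL1 these values were 696 and 566. The study's own rule for calls, an unadjusted p of 0.05 or less with a log2 fold change over 0.5 in size, marked MBNL1 in P7 to P28 (25.1% of the genes) and both members in P3 to P28 (24%). MBNL1 from P1 to P28 was just under the size limit of 0.5 and was not marked in the edgeR fit, while 23.1% of the genes were. By DESeq2, which the methods of the study name, its log2 fold change was 0.503 (unadjusted p = 1.75e-04), past that limit, with 23.5% of the genes marked.

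Markers of other cell types were summed in the same libraries. The 6 measured leukocyte markers of 9 listed (the complement chains C1QA, C1QB and C1QC, with CD14, CSF1R and LYVE1) summed to between 737 and 1113 CPM at P28 and to between 452 and 667 CPM in the earlier libraries, without overlap, and C1QB was the 1 of them called from P1 to P28 (log2 fold change 0.73, edgeR adjusted p = 0.0493). TCF21, the transcription factor of cardiac fibroblasts and the 1 measured gene of 8 on the fibroblast list, read 17.4 to 22.4 CPM at P28 and 32.3 to 41.2 CPM before. Endothelial markers summed to between 719 and 820 CPM at P28 and to between 767 and 1353 CPM before, with overlap, while TEK, a vascular receptor on that list, rose from P1 to P28 (0.53, edgeR adjusted p = 0.0356). Smooth muscle and pericyte markers summed to between 269 and 541 CPM at P28 and to between 460 and 1219 CPM before, also with overlap. Cardiomyocyte markers summed to between 78028 and 87280 CPM at P28, within the range of the earlier ages, but single members moved in opposite directions from P1 to P28. ACTC1, cardiac actin, fell by 0.60 on the log2 scale (edgeR adjusted p = 0.0340) and MYBPC3, a thick filament protein, rose by 0.57 (edgeR adjusted p = 0.0158). From P7 to P28, where 18.8% of all genes were called, 9 of the 20 measured markers were called. The leukocyte genes C1QA (log2 fold change 1.102, edgeR adjusted p = 0.00530), C1QC (1.01, 0.00711) and C1QB (0.96, 0.0131) and the cardiomyocyte genes TNNI3 (0.71, 0.00403), MYBPC3 (0.69, 0.00425) and TNNC1 (0.54, 0.0338) rose in that contrast. The smooth muscle gene MYLK (-0.80, edgeR adjusted p = 0.00470), TCF21 (-0.74, 0.00395) and the endothelial gene TIE1 (-0.71, 0.0236) fell. From P3 to P28, where 16.5% of all genes were called, C1QC (0.94, edgeR adjusted p = 0.0126), C1QB (0.92, 0.0182), C1QA (0.85, 0.0233) and TEK (0.83, 0.00430) rose. The pericyte gene PDGFRB (-0.98, edgeR adjusted p = 0.0451), TCF21 (-0.84, 0.00280) and TIE1 (-0.81, 0.0151) fell, and no other measured marker was called there. The part of these cell types in the levels of QKI and MBNL1 was not tested. No gene of the erythroid and Schwann cell lists was measured.

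QKI exceeded MBNL1 in every library when both were expressed per kilobase. The ratio of QKI to MBNL1 per kilobase lay between 2.31 and 3.15 over the 12 libraries. At P28 it was 2.314, 3.009 and 2.701, a range that overlapped those of the other ages. The log2 CPM values of the members (TMM-scaled, prior count of 2) had a Pearson r of 0.903 over the 12 libraries. Among the 4210 genes compared, MBNL1 ranked 50 by its r with QKI, and QKI ranked 61 by its r with MBNL1.

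Genes with the pattern most like that of each member were ranked by the same r over 12 libraries, among the 4210 tested genes with a symbol. For QKI the highest were ZRANB2 (0.988), a zinc-finger splicing factor, TENT2 (0.964), a cytoplasmic poly(A) polymerase, the small nucleolar RNA SNORA4 (0.963), CLPX (0.960), a subunit of a mitochondrial protease, and PRPF39 (0.959), a U1 snRNP-associated splicing factor. The lowest were UCK1 (-0.953), FAM131A (-0.947), FNDC1 (-0.935), IPO13 (-0.930) and RAB4B (-0.928). For MBNL1 the highest were PAIP2 (0.966), a repressor of poly(A)-binding protein, the sialic acid synthesis enzyme GNE (0.958), the ion channel kinase TRPM7 (0.954), PAXBP1 (0.951) and the transcription factor MITF (0.951). The lowest were UCK1 (-0.944), a uridine-cytidine kinase, PHC2 (-0.937), PKN3 (-0.934), MEIS3 (-0.928) and CD248 (-0.928), a pericyte and fibroblast surface protein. These values describe likeness over libraries that share an age series and the library P3 number 5, so they carry no test.

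The other genes known to act on circRNAs were examined next, to set the members beside the rest of the machinery. Besides QKI and MBNL1, 73 genes were listed by their reported role, and 21 of them were in the table, all of which were tested. MBNL2 and MBNL3, the paralogs of MBNL1, were not analysed here, since the table used covers chromosomes 1, 2, 6 and 13. From P1 to P28, 0 of the 21 genes were called by edgeR, although 4 had an unadjusted p under 0.05 and DESeq2 called 1, beside 15.3% of all genes called by edgeR and 19.7% by DESeq2. Their median log2 fold change was 0.08, against 0.004 for all genes tested, and 18 of the 21 had a positive value, as did 50.3% of all genes. In the other contrasts the number with a positive value was 11 of the 21 (P1 to P3 and P3 to P28), 12 (P3 to P7) or 15 (P1 to P7, P1 to the later ages and P7 to P28). By edgeR, 0 of the 21 were also called from P1 to P3, P1 to P7, P1 to the later ages and P3 to P7, where 3, 1, 3 and 2 genes had an unadjusted p under 0.05 and DESeq2 called 0, 0, 0 and 1. Of all genes, edgeR called 0.0543%, 2.01%, 2.46% and 2.21% in these contrasts, and DESeq2 called 2.21%, 6.59%, 5.27% and 7% of those to which it gave an adjusted p.

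Of the factors reported to promote circRNA formation, 7 besides the members were measured. ESRP2, an epithelial splicing regulator, was at the bottom of the range, with 3.4, 2.8 and 1.2 CPM at P1, 2.0, 5.5 and 2.4 at P3, 1.7, 0.9 and 1.4 at P7, and 6.3, 3.5 and 4.1 at P28. It rose from P7 to P28 by a log2 fold change of 1.92 (SE 0.51, edgeR adjusted p = 0.0211), at 12 to 82 counts per library in these ages. The call was lost without P7 number 5, P7 number 6 or P28 number 4 (adjusted p up to 0.0977), with log2 fold changes of 1.62 to 2.13 when each library was left out in turn. SFPQ, a paraspeckle and splicing protein, averaged 542 CPM at P1 and 680 CPM at P28, with a log2 fold change of 0.32 (SE 0.14, edgeR adjusted p = 0.125), and was called without P3 number 5 (edgeR adjusted p = 0.0243) and in the fit on only the ages compared. The abundant regulators HNRNPL and KHDRBS1 had log2 fold changes of 0.02 and 0.04 from P1 to P28, with SEs of 0.11 and 0.10. TARDBP (0.20, SE 0.17), SRSF11 (0.13, SE 0.14) and NOVA2 (0.61, SE 0.46, at 3.09 CPM at P1 and 4.79 CPM at P28) did not pass the test either.

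Among the 4 measured factors reported to restrain circRNAs, the direction differed from gene to gene. SNRPD1, a core spliceosomal Sm protein, read 80.6, 79.8 and 72.5 CPM at P7 and 45.9, 47.9 and 36.2 CPM at P28, and fell by 0.71 on the log2 scale (SE 0.22, edgeR adjusted p = 0.0415). This call was lost in 8 of the 12 fits that left out a library, among them every P7 and every P28 library (adjusted p up to 0.150), with log2 fold changes of -0.79 to -0.58, and with the replicate number as a block. CDC40, a factor of the second splicing step, rose from P3 to P28 by a log2 fold change of 0.49 (SE 0.14, edgeR adjusted p = 0.0357), a call that was lost in 7 of the 12 fits that left out a library. Without P3 number 5 the log2 fold change was 0.40 (edgeR adjusted p = 0.0601). SNRNP70, the U1-70K protein, read 1004 CPM in P3 number 5 and between 483 and 694 CPM in the other 11 libraries. Without that library it rose from P7 to P28 by 0.51 (edgeR adjusted p = 0.00129), against 0.52 (0.0620) with it. ADARB1, an RNA-editing enzyme, averaged 107 CPM at P1, 170 at P3, 157 at P7 and 111 at P28, and its log2 fold change from P1 to P3 was 0.65 (SE 0.19, edgeR adjusted p = 0.193).

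The remaining genes were those of export, turnover, N6-methyladenosine (m6A) and cardiac splicing, and none of these 10 genes was called by edgeR in any of the 7 contrasts with all 12 libraries, although 4 of them (EIF4G2, FTO, UPF1 and WTAP) had an unadjusted p under 0.05 in at least 1 contrast. EIF4G2, a translation initiation factor used by some m6A-marked circRNAs, had a log2 fold change of -0.36 (edgeR adjusted p = 0.103) from P1 to P28, and FTO, an m6A demethylase, had 0.40 (edgeR adjusted p = 0.0696). Both were called without P3 number 5, at an edgeR adjusted p of 0.0371 and 0.0117. The nuclear export factor NXF1 and the turnover factors UPF1 and YTHDF2 had log2 fold changes of 0.04, 0.23 and 0.05 from P1 to P28. CELF1, a splicing factor known to act against muscleblind proteins, was at 404 CPM at P1 and 413 CPM at P28, with a log2 fold change of 0.03 (SE 0.11). PTBP1, SRSF4 and SRSF10 had -0.08, 0.14 and 0.08. Leaving out P3 number 5 brought the number called to 5 of the 21 from P1 to P28 (3 higher and 2 lower) and to 4 from P7 to P28 (2 higher and 2 lower), beside 25.6% and 28.3% of all genes. From P3 to P28 it was 2, beside 18.5% of all genes. SNRPD1 fell by 0.69 on the log2 scale (edgeR adjusted p = 0.00755, against a log2 fold change of -0.43 and 0.194 with all libraries) and FTO rose by 0.34 (0.0463, against 0.19 and 0.371).

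**Figure D3:**
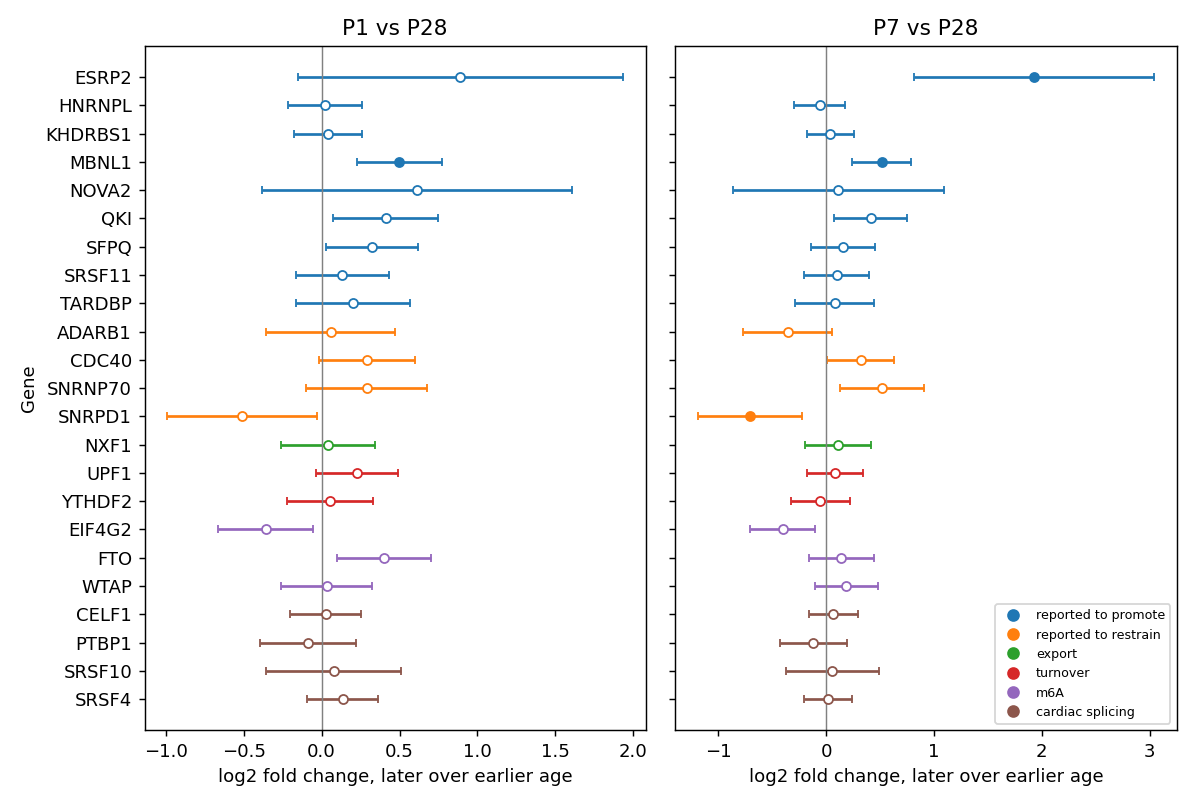
Log2 fold changes with 95% intervals of 23 genes known to act on circRNAs or on cardiac splicing, from P1 to P28 (left) and from P7 to P28 (right), colored by reported role. Filled circles have an adjusted p under 0.05: MBNL1 in the left panel, and MBNL1 (0.51), ESRP2 (1.92) and SNRPD1 (-0.71) in the right panel.

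The small RNA libraries of the same pigs were examined for miRNAs described in other systems as binding transcripts of QKI or MBNL1. Of those listed, 10 were measured, and each was tested with edgeR among 305 miRNA entries, each a pair of mature miRNA and precursor. Where a miRNA had more than 1 entry, only the entry with the highest total count was used. This was so for miR-218-5p (6 entries) and miR-30c-5p (2 entries), and their other entries are not reported. From P1 to P28, 5 of the 10 were called, in a contrast that called 42% of the entries. This count was 3 without P1 number 6 or without P28 number 5 (31.2% and 29% of the entries called), up to 7 when other libraries were left out (39.9% to 41.4% of the entries in the fits that gave 7), and 4 without the filter on low counts (35.4%). Their mature sequences are not printed here.

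Of the miRNAs listed for QKI, 2 fell from P1 to P28. miR-221-3p read 127, 97.1 and 94.1 TMM-scaled CPM at P1 and 64.2, 45.5 and 45.7 at P28, and fell by 1.03 on the log2 scale (SE 0.19, edgeR adjusted p = 5.76e-04). miR-155-5p, an inflammatory miRNA, read 78.71, 60.05 and 55.37 TMM-scaled CPM at P1 and 41.7, 30.5 and 23.0 at P28, and fell by 1.02 on the log2 scale (SE 0.24, edgeR adjusted p = 0.00345). miR-214 was higher at P7 than at P1 (log2 fold change 0.66, SE 0.21, edgeR adjusted p = 0.0282, with 30.8% of the entries called) and averaged 140 ± 10.1 TMM-scaled CPM at P28 against 121 ± 5.29 at P1 (SD, n = 3 each).

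Of those listed for MBNL1, edgeR called miR-30b-5p and miR-23b as higher and miR-218-5p as lower at P28 than at P1. miR-30b-5p read 1147, 1292 and 966 TMM-scaled CPM at P1 and 2058, 2209 and 2008 at P28, a log2 fold change of 0.88 (SE 0.16, edgeR adjusted p = 4.47e-04). miR-23b changed by 0.36 (SE 0.14, edgeR adjusted p = 0.0487) and miR-218-5p by -0.58 (SE 0.19, edgeR adjusted p = 0.0215). Of the other miR-30 family members, miR-30a-5p, miR-30d and miR-30e-5p were far more abundant, with miR-30d at 46247 ± 2171 TMM-scaled CPM at P1 and 44956 ± 5316 at P28 (SD, n = 3 each), whereas miR-30c-5p averaged 1805 ± 184 at P1 and 2331 ± 359 at P28 (SD, n = 3 each). None of these 4 was called by edgeR from P1 to P28, although 2 of them (miR-30c-5p and miR-30e-5p) had an unadjusted p under 0.05.

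Back-spliced reads were then compared across ages and with the 2 members. They are given as a back-splice rate, the number of back-spliced reads per 1000000 gene counts of the same pig, which is the scale used for the genes. The P1 libraries had back-splice rates of 1552, 2893 and 2937. At P3 the rates were 1223, 5131 and 3316. At P7 they were 1154, 656 and 2238. At P28 they were 1804, 3860 and 2571. The ages overlapped, and the highest value was again that of P3 number 5, the library with the lowest QKI and MBNL1. The means were 2460 ± 787, 3223 ± 1956, 1349 ± 809 and 2745 ± 1039 (SD, n = 3 each) from P1 to P28, on 8636 to 49042 back-spliced reads per library.

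Differences in the back-splice rate between ages did not exceed the spread between pigs in the test. Age held 31.5% of the variance, where random assignment gives 27.3% on average (exact permutation test over 369600 assignments, one-sided, p = 0.354). The share depended on single libraries, being 61.3% without P3 number 4 (exact permutation test, one-sided, p = 0.0696) and 20.1% without P7 number 5 (p = 0.644 in the same exact test), where random assignment gives 30% on average. Among the 7 libraries with at least 20% of single-count junctions, with 1 library each at P3 and P28, this share was 70.3%, where random assignment gives 50% on average. It is given as a value only, since 2 of the 4 ages had 1 library. P1 against P3, P7 and P28 gave exact permutation p-values of 0.5, 0.2 and 0.9 (two-sided), in a design whose smallest p is 0.1. The rate and the share of single-count junctions come from the same back-spliced counts, and they are given side by side with no test. The 5 libraries with under 20% of such junctions had back-splice rates between 2238 and 5131 (median 3316) and 6.42 to 19.0 reads per junction, whereas the other 7 had rates between 656 and 2937 (median 1552) and 2.88 to 5.84 reads per junction, so the ranges of the rate overlapped. The limit of 20% was set after the values had been seen. The number of distinct junctions per 1000000 gene counts was 461 ± 91.2 at P1, 301 ± 79.5 at P3, 311 ± 72.0 at P7 and 334 ± 57.3 at P28 (SD, n = 3 each; exact permutation test over the 4 ages, one-sided, p = 0.118). Without P3 number 5 the P3 mean was 317 ± 106 (SD, n = 2) and the same exact permutation test gave p = 0.174. With all 12 libraries, P1 against P3, P7 and P28 gave exact permutation p-values of 0.2, 0.1 and 0.2 (two-sided) for distinct junctions. The value of 0.1 against P7 is the smallest that this design can give, with P1 at 357 to 529 and P7 at 228 to 356. In the 7 libraries with at least 20% of single-count junctions, P3 and P28 had 1 library each, at 392 and 395, with a mean of 461 at P1 (n = 3) and 292 at P7 (n = 2).

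**Figure D4:**
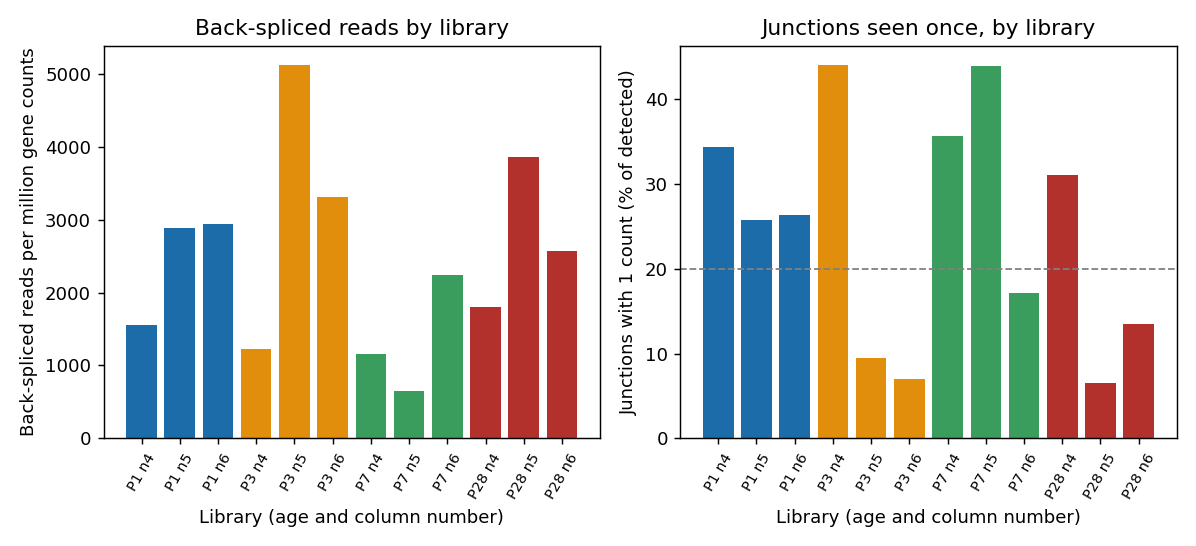
Back-splice rate, in back-spliced reads per 1000000 gene counts (left), and junctions seen with 1 count as a percentage of detected junctions (right) in each of 12 libraries, named by age and column number, with bars colored by age and a dashed line at 20%. The library P3 number 5 has the tallest bar on the left, at 5131, and the 5 libraries under the line lie between 6.50% and 17.1%.

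No correlation between a member and the back-splice rate passed the test over the 12 libraries. For QKI, Pearson's r was -0.397 (permutation p = 0.204, adjusted 0.272) and Spearman's rho was -0.357 (permutation p = 0.259, adjusted 0.460). For MBNL1, r was -0.305 (permutation p = 0.336, adjusted 0.336) and rho was -0.238 (permutation p = 0.460, adjusted 0.460). Adjustment was over 4 relations, those of each member over all libraries and within ages. Within ages, after the mean of each age had been removed, r was -0.710 for QKI (exact permutation p = 0.184, adjusted 0.272) and -0.712 for MBNL1 (exact permutation p = 0.0934, adjusted 0.272). On ranks the within-age correlation was -0.721 for QKI (exact permutation p = 0.0671, adjusted 0.269) and -0.294 for MBNL1 (exact permutation p = 0.438, adjusted 0.460). Both quantities are divided by the same gene total.

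These correlations turned on P3 number 5. Without it, r was 0.141 for QKI (permutation p = 0.677) and 0.082 for MBNL1 (permutation p = 0.810) over 11 libraries, and within ages it was -0.337 (exact permutation p = 0.477) and -0.477 (exact permutation p = 0.262). Without the 2 libraries farthest from the median of the member's level, r was -0.247 for QKI (permutation p = 0.486) and -0.359 for MBNL1 (permutation p = 0.307) over 10 libraries. Without P28 number 5, r for QKI was -0.671 (permutation p = 0.0324). Within the 7 libraries with at least 20% of single-count junctions, r was -0.533 for QKI (permutation p = 0.220) and -0.026 for MBNL1 (permutation p = 0.956), and no r was computed over the other 5 libraries, since a minimum of 6 was kept. Against the number of distinct junctions per 1000000 gene counts, r was -0.080 for QKI (permutation p = 0.803) and 0.1005 for MBNL1 (permutation p = 0.752). These values also turned on P3 number 5, since without it r was -0.409 for QKI (permutation p = 0.209) and -0.059 for MBNL1 (permutation p = 0.866). Over the 8 earlier libraries without it, r was -0.633 for QKI (exact permutation p = 0.0962) and 0.047 for MBNL1 (exact permutation p = 0.914), and in the 7 libraries with at least 20% of single-count junctions it was -0.505 (exact permutation p = 0.248) and -0.081 (exact permutation p = 0.818).

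The P28 libraries lay apart from the rest in this comparison, with high QKI and back-splice rates of 1804 to 3860. Over the 9 libraries of P1, P3 and P7, a choice made after the values had been seen, r for QKI was -0.909 (permutation p = 4.90e-04) and rho was -0.917 (permutation p = 0.00123). Without P3 number 5 alone, r was -0.851 over 8 libraries (permutation p = 0.0108). Without the 2 libraries farthest from the median of QKI (P3 number 5 and P7 number 5), r was -0.778 (permutation p = 0.0478). With TMM-scaled totals in place of raw totals, r was -0.769 (permutation p = 0.0306) and rho -0.417 (permutation p = 0.270), and without the 2 farthest libraries r was -0.266 (permutation p = 0.534). When the 9 genes of signal recognition particle RNA, which took between 7.09% and 19.7% of the gene counts, were left out of the totals, r was -0.831 (permutation p = 0.0101), and without the 2 farthest libraries -0.409 (permutation p = 0.351). For MBNL1 over the 9 libraries r was -0.772 (permutation p = 0.0192) and rho -0.633 (permutation p = 0.0746), and without the 2 farthest libraries r was -0.107 (permutation p = 0.827). Without P3 number 5 alone, r for MBNL1 was -0.392 over 8 libraries (exact permutation p = 0.332). With TMM-scaled totals, r for MBNL1 was -0.647 (permutation p = 0.0729), and 0.012 without the 2 farthest libraries (exact permutation p = 0.984). With the signal recognition particle genes left out, these values were -0.691 (permutation p = 0.0493) and -0.430 (exact permutation p = 0.367). For both other totals of QKI, and for MBNL1 on every scale, the relation among the earlier libraries thus rested on the libraries farthest from the median.

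**Figure D5:**
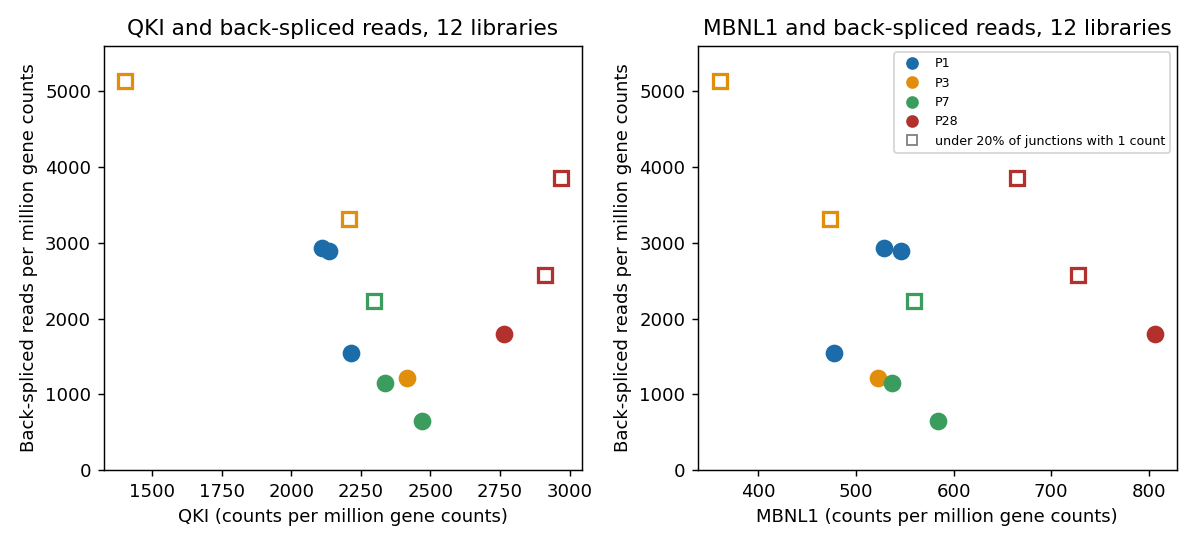
Back-splice rate in back-spliced reads per 1000000 gene counts (vertical axis) against the level of QKI (left) and MBNL1 (right) in CPM (horizontal axis) for 12 libraries, colored by age, with open squares for libraries with under 20% of single-count junctions. The point at the top left of each panel is P3 number 5, at a rate of 5131, and the P28 points lie to the right, at 1804 to 3860.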

How the data were processed

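The gene counts analyzed were raw read counts per gene, deposited by the authors from TruSeq Stranded Total RNA libraries after rRNA removal. The counting tool, its strand setting and the genome build are not given in the sources used here. The circRNA counts deposited by the authors were back-spliced reads per junction, aligned with STAR 2.7.9a to Sscrofa10.2 and called with CIRCexplorer2. Host genes of the junctions were not analysed here. The miRNA values were expected counts (estimated reads per pair of mature miRNA and precursor), deposited by the authors without normalization, and were rounded here.

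From 9815 genes with counts (1 incomplete row was left out), those with at least 10 counts in at least 3 libraries were tested (5526) with edgeR 4.0.16 in R 4.3.3, using TMM, 4 ages in a single fit and no covariate. The miRNA fit had the same form. The common dispersion was 0.0446 for genes. CPM divides by the gene total, so a few abundant genes can move it, and counts on paralogs or unlisted overlapping genes cannot be told apart. Exact and 100000-resample permutation tests were run in Python 3.11.15. Those of mean differences between 2 ages, and the ranks, used scipy 1.17.1, and the other permutation tests were coded directly. The scripts that compute statistics were tested on simulated data. Alternatives used DESeq2 1.42.0, limma 3.58.1 (voom), other filters, other totals and leaving out each pig. Columns were matched by age and number. The labels number the samples of an age differently, so columns were given to an age only, and p-values measure the spread between these samples. At the same number, 5 of 18 pairs of libraries had a correlation above 0.1 (median 0.035), so the numbers were not used as pairs. Named genes were the members, the listed factors measured, and the 5 genes most and least like each member. The 2 members and all lists were chosen with earlier results of these data known. The other 2 circRNA tables (batches nv1 and nv2) were not used, since their gene counts were not analysed here.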

Additional observations from a re-analysis of the deposited data

How the results depend on the processing

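The rise of MBNL1 from P1 and P7 to P28 passed the threshold under all 8 alternatives each to the test, scaling, filter, totals and design, with log2 fold changes of 0.49 to 0.50 (adjusted p of 0.00213 to 0.0304) and 0.50 to 0.51 (0.00136 to 0.0218). QKI from P1 to P28 stayed above the adjusted threshold under 7 of 8 (0.40 to 0.42) and passed at 0.40 with only the ages compared, as did P7 to P28 at 0.39. The change of QKI from P1 to P7 was near 0 and turned positive with DESeq2 size factors (0.0041), DESeq2 (0.0041), voom (0.0032), at least 10 counts in all 12 libraries (0.0087), no signal recognition particle genes (0.0020), only the ages compared (0.0024) and the replicate number as a block (0.0025). The number of the 21 factor genes called, each with the share of all genes called by the same rule, became 1 by the study's rule (10.6%) from P1 to P3, 1 by DESeq2 (19.7%), 3 with only the ages compared (22.5%) and 1 by the study's rule (23.1%) from P1 to P28, 1 by DESeq2 (7%) and 2 by the study's rule (13%) from P3 to P7, and 4 by DESeq2 (23.4%), 4 with only the ages compared (31.7%), 3 by the study's rule (25.1%) and 1 with the replicate block (18.3%) from P7 to P28 (2 in the fit reported, 18.8%). The replicate block changed no call of QKI or MBNL1 and no other of these counts, and the libraries of a block share only a number. Its effect on the calls of miRNAs and markers was not examined. Against back-spliced reads, r over the 9 earlier libraries was -0.909 for QKI and -0.772 for MBNL1, and r for MBNL1 turned to 0.1005 against distinct junctions. The cause was not tested.

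Leaving out each library in turn gave log2 fold changes for QKI of -0.27 to 0.026 (P1 to P3), -0.058 to 0.078 (P1 to P7), 0.36 to 0.49 (P1 to P28), 0.03 to 0.17 (P1 to later ages), -0.024 to 0.26 (P3 to P7), 0.38 to 0.44 (P7 to P28) and 0.38 to 0.68 (P3 to P28). For MBNL1 the ranges were -0.32 to -0.13, -0.062 to 0.020, 0.41 to 0.55, 0.05 to 0.12, 0.11 to 0.30, 0.43 to 0.58 and 0.62 to 0.82. The number of factor genes called ranged from 0 to 5 (P1 to P28), 0 to 1 (P3 to P7) and 0 to 4 (P7 to P28), highest without P3 number 5 in the first and last, where 25.6% and 28.3% of all genes were called, and 1 without P3 number 4 or 6 from P3 to P7, where 4.47% and 4.08% were. The number of listed miRNAs called ranged from 3 to 7, the age share of back-spliced reads from 20.1% to 61.3%, and r against back-spliced reads from -0.671 to 0.141 for QKI and from -0.438 to 0.082 for MBNL1. With all 12 libraries the SE of QKI from P1 to P7 was 0.156 on the log2 scale (95% interval -0.34 to 0.34), against 0.0947 without P3 number 5 and 0.098 with only the ages compared, so the size of change that could be detected depended on that library.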
